A study of Mus musculus with 6 samples.

Results

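The small leucine-rich proteoglycans are a family of secreted matrix proteins, described here through 10 genes: Bgn, Dcn, Lum, Fmod, Aspn, Ogn, Prelp, Kera, Omd and Podn. Their rows were taken by exact gene symbol from a table of raw read counts of 23420 genes. All 10 had a row, 9 had at least 1 count in some library, and 5 had enough counts to be tested. The cells were E1A;HrasG12V mouse embryonic fibroblasts of mixed 129/Sv-C57BL/6 strain, which carry the adenoviral E1A oncogene and an activated Ras gene in every sample. Each of 3 lines gave 1 library with p53 wild-type, from a guide that targets no gene (sgNTC), and 1 library with the guide sgp53(1), so that 3 sgNTC libraries stood against 3 sgp53 libraries. By the labels, p53 was null in the sgp53 libraries of lines 1 and 3, whereas in line 2 it was functionally inactive. Plated cells were kept for 24 h in 5% oxygen at 37 °C before harvest, and the comparison addresses RNA levels with and without working p53 at this oxygen level.

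Members of the family have a small core protein built of leucine-rich repeats, and most carry chondroitin, dermatan or keratan sulfate chains. They bind fibrillar collagens and set the width and spacing of the fibrils, and several also hold growth factors of the TGF-beta family or signal through cell surface receptors. Fibroblasts of connective tissue are a main source of them. The family is usually divided by sequence into class I (biglycan, decorin, asporin), class II (lumican, fibromodulin, PRELP, keratocan, osteomodulin), class III (osteoglycin) and the noncanonical classes that include podocan.

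Library totals lay between 27503577 and 35860866 counts. Trp53, the targeted gene, fell from 206 to 71.1 CPM (the usual depth-scaled count, here on TMM-adjusted library totals) in line 1, from 277 to 72.0 CPM in line 2 and from 253 to 113 CPM in line 3 (edgeR log2 fold change -1.52, SE 0.21, adjusted p = 0.0168). The fibroblast genes Vim and Fn1 were abundant, at 3121 ± 322 and 2938 ± 633 CPM in sgNTC and 2688 ± 272 and 4078 ± 295 CPM in sgp53 (SD, n = 3). The sgp53 library of line 3 stood apart in the ribosomal RNA precursor Rn45s, with 3338 CPM against 636 to 864 CPM in the other libraries. The summed epithelial markers were 259 to 646 CPM in sgNTC and 88.8 to 133 CPM in sgp53. Most of these sums came from Krt18 and Epcam, with means of 415 and 74.8 CPM in sgNTC and 66.7 and 33.2 CPM in sgp53. Krt8 averaged 1.33 and 0.782 CPM in sgNTC and sgp53, while Cdh1 was not lower in sgp53, at 3.46 and 3.69 CPM. Of those 7 markers, 4 were tested and 1, Krt18, was called lower (adjusted p = 0.0295 in edgeR; 0.0534 with the line as a block). The blood and macrophage markers summed to 13.1 to 16.1 CPM in sgNTC and 7.55 to 8.31 CPM in sgp53, with Cd68 called lower among 2 tested. Most of these sums came from Cd68 and Cd14, and Cd14 was not called (edgeR adjusted p = 0.325). The few calls in these marker lists, Fap below included, are read beside the 3.69% of all tested genes called lower and 2.76% called higher. They are no result about the lists. The 10 fibroblast markers summed to 5735 to 6721 CPM in sgNTC and 6657 to 8215 CPM in sgp53, mostly from Vim and Fn1. Their median log2 fold change was 1.62, against -0.01 over all tested genes. An unadjusted edgeR p under 0.05 was found for 6 of the 10, and for 3785 of all 13044 tested genes. For 4 of the 10, every sgp53 library was above every sgNTC library, as for 17.8% of all tested genes. Of the 10, Fap was called higher (edgeR adjusted p = 0.0380, and 0.0825 in edgeR with the line as a block). Fap was near the floor, with 5, 3 and 2 counts in sgNTC and 23, 18 and 46 in sgp53 of lines 1, 2 and 3. It passed the filter on low counts through the sgp53 libraries alone, so its call is not independent of that filter. The endothelial markers summed to at most 2.77 CPM in any library, with the blood marker Ptprc at a mean of 0.01 and 0.0228 CPM in sgNTC and sgp53. The part of these differences in the results below was not tested, and in such bulk samples fewer cells of a type and less RNA per cell cannot be told apart.

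RefSeq promoters (GRCm38.p6, the assembly that mm10 denotes, 250 bases before to 50 bases after a listed start) were matched for 8 of the 10 members; Dcn and Lum had no entry. The listed start lay 8701 bases downstream of the gene start given below for Prelp and 243 bases for Kera, so these windows are not at the outermost start. The Podn window is at the RefSeq start. In the GENCODE M21 annotation, Podn begins further upstream, at 108096445 on the minus strand, within the span of Scp2. The 3 printed below belong to the 3 members that passed the test, Bgn and Ogn, which were higher in sgp53, and Podn, which was lower. Capitals mark GC boxes (GGGCGG on either strand) in Bgn and Podn, and TATAAA on either strand together with the TEAD motif GGAATG in Ogn.
Bgn promoter, chrX:73483351-73483650, plus strand: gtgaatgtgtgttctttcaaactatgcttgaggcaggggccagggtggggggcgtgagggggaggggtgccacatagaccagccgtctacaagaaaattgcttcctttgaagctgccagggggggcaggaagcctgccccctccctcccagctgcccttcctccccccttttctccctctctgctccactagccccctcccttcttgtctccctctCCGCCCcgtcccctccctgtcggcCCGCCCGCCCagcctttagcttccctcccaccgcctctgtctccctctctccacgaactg
Ogn promoter, chr13:49607765-49608064, plus strand: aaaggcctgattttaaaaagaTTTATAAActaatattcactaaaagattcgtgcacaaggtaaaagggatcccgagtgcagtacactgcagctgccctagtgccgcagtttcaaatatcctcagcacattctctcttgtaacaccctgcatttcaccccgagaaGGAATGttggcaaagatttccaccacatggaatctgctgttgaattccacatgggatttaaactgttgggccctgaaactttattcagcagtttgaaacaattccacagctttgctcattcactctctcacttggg
Podn promoter, chr4:108031905-108032204, minus strand: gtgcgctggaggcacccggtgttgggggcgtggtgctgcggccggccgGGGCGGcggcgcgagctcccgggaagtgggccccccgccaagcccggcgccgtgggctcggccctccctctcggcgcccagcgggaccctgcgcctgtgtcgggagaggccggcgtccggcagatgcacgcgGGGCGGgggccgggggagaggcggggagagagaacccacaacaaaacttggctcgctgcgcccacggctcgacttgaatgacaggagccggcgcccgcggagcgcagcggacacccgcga
The Podn promoter was 77% G or C and held 41 CG dinucleotides, the Bgn promoter 63.7% and 9, and the Ogn promoter 42.3% and 4. The medians over all 32851 promoters of this length were 52.7% and 7. The 3 GC boxes of Bgn began 34, 10 and 6 bases before the start (the last pair overlap), and those of Podn 202 and 70 bases before it. The Ogn TEAD motif began 86 bases before the start, and its overlapping TATAAA matches began 229 and 227 bases before it. GC boxes were found in 35.7% of all promoters, TATAAA in 13.6% and GGAATG in 14.7%. No member's promoter held the AP-1 motif TGANTCA (7.81% of all promoters), the E-box CACGTG (7.15%), a CArG box (1.63%) or the full p53 response element, 2 consensus decamers up to 13 bases apart (0.0731%), and none held 1 such decamer (8.36%). The motif CAGAC, bound by SMAD proteins and present in 49.6% of promoters, was found among the members in Fmod and in the Prelp window just described. All motifs were searched on both strands; a match is a match of letters in this window and not a measured binding site.

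In the comparison of sgp53 with sgNTC, RNA of the family rose through Bgn and Ogn and fell in Podn. Bgn was 69.2-fold and Ogn 11.7-fold higher in sgp53, and Podn was 4.35-fold lower. Of the 5 tested members, edgeR called 2 higher and 1 lower. Among all 13044 tested genes it called 6.45%, with 2.76% higher and 3.69% lower. In the fit that blocks on the line, Bgn was still called higher and Podn lower, and Ogn was not (edgeR adjusted p = 0.0614). That fit called 2.38% of all genes, 0.966% higher and 1.42% lower. Every sgp53 library was above every sgNTC library for 3 of the 5 tested members (Bgn, Dcn and Ogn) and below for 1 (Podn), where 17.8% of all tested genes were so placed above and 19% below. Bgn, Ogn and Podn passed the filter on low counts through both groups. Dcn and Aspn passed it with all 3 sgp53 libraries and only 2 and 1 of the sgNTC libraries, so their passing leaned on the group where they were high. Fmod, Omd, Prelp, Lum and Kera were too low to be tested.

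**Figure D1:**
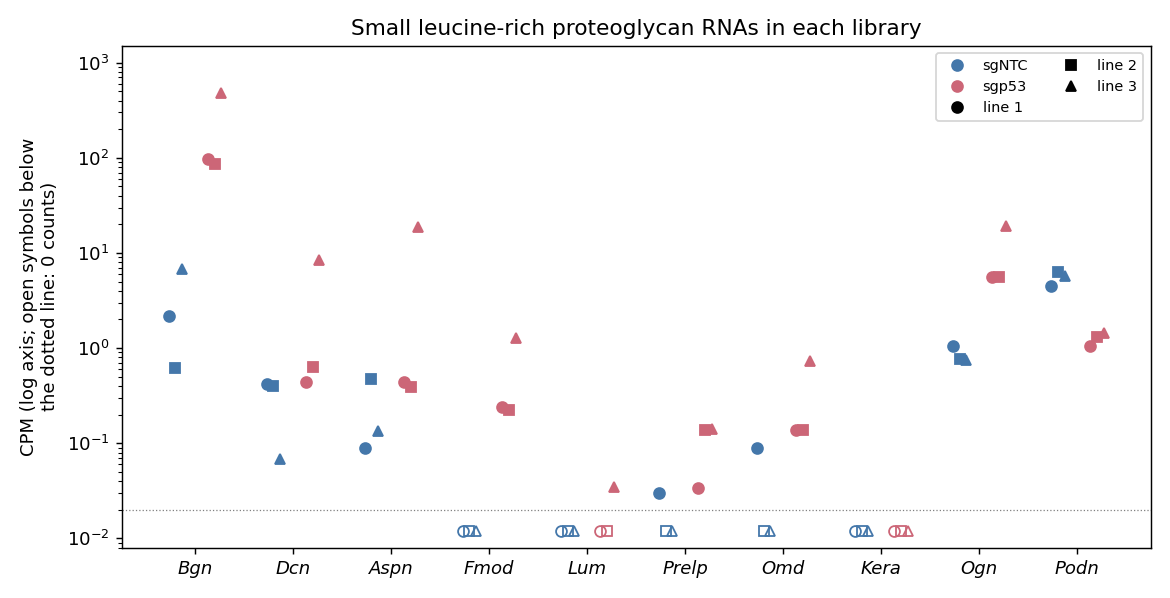
Level of each of the 10 members in each library, in CPM on a log axis, with sgNTC in blue, sgp53 in red and the line as the symbol; open symbols below the dotted line stand for 0 counts. Bgn spans 0.616 to 6.84 CPM in sgNTC and 87.2 to 483 CPM in sgp53, Podn is lower in all 3 sgp53 libraries, and the sgp53 library of line 3 is the highest point of 8 members.

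Bgn (chromosome X, 73483601 to 73495936, plus strand) encodes biglycan, a class I member that carries chondroitin or dermatan sulfate chains and binds type I collagen. It had 72, 17 and 202 counts in the sgNTC libraries of lines 1, 2 and 3, which were 2.16, 0.616 and 6.84 CPM. With sgp53 it had 2867, 3136 and 13765 counts, which were 97.9, 87.2 and 483 CPM. The groups were far apart, the lowest sgp53 library lying above the highest sgNTC library, while within each group line 3 was the highest. Bgn averaged 3.21 ± 3.24 CPM in sgNTC and 223 ± 226 CPM in sgp53 (SD, n = 3 each), and edgeR fitted a log2 fold change of 6.11 (SE 1.09, adjusted p = 0.0302). Only 3 of all tested genes had a larger log2 fold change. Within lines 1, 2 and 3 the log2 difference, taken with a prior count of 2, was 5.46, 7.00 and 6.13. The lines differed more in level than in this difference, and the SE fell from 1.09 to 0.29 when the line entered the fit as a block (edgeR log2 fold change 6.11, adjusted p = 0.0106). The log2 fold change of Bgn was 6.01 (SE 0.53) without both libraries of line 3, where the call was lost (adjusted p = 0.0704 in edgeR). It was 4.85 without the sgp53 library of line 3 and 7.27 without the sgNTC library of line 3, so its size depended on which libraries were in the fit. The call without a block was lost without sgNTC line 1, 2 or 3 (edgeR adjusted p = 0.0662, 0.0763 and 0.0779) and without sgp53 line 1 (0.0702), and over all alternatives the adjusted p ranged from 1.03e-05 to 0.136.

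Dcn (chromosome 10, 97479500 to 97518163, plus strand) encodes decorin, the class I relative of biglycan that binds collagen fibrils and TGF-beta. It had 14, 11 and 2 counts in sgNTC and 13, 23 and 238 counts in sgp53 of lines 1, 2 and 3. Scaled for depth these were 0.421, 0.399 and 0.0677 CPM against 0.444, 0.639 and 8.35 CPM. In line 1 the libraries were nearly the same, and 86.9% of the sgp53 counts came from line 3. The log2 fold change of 3.38 (SE 1.32) missed the threshold (edgeR adjusted p = 0.151), and it was 0.87 (SE 0.71) without the sgp53 library of line 3.

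Aspn (chromosome 13, 49544443 to 49567565, plus strand) encodes asporin, a class I member with a stretch of aspartic acids that binds collagen and TGF-beta. It had 3, 13 and 4 counts in sgNTC and 13, 14 and 534 counts in sgp53, or 0.0902, 0.471 and 0.135 CPM against 0.444, 0.389 and 18.7 CPM. The groups overlapped, as sgp53 lines 1 and 2 lay below sgNTC line 2, and 95.2% of the sgp53 counts were in line 3. The log2 fold change of 4.82 (SE 1.78, adjusted p = 0.137 in edgeR) became 0.86 (SE 0.74) without the sgp53 library of line 3. Dcn and Aspn thus differed from Bgn in where the difference lay, with within-line log2 differences of 0.07, 0.60 and 5.99 for Dcn and 1.71, -0.24 and 6.55 for Aspn in lines 1, 2 and 3. That library also had the high Rn45s level given above. Of the 10 fibroblast markers, all but Vim and Twist1 were likewise highest there. Thy1 was at 0.24, 4.06 and 0.406 CPM in sgNTC and 4.30, 3.36 and 53.9 CPM in sgp53. Prrx1 was at 16.2, 65.9 and 30.6 CPM against 65.2, 64.5 and 242 CPM. Vim was highest in sgNTC line 3 (3354 CPM, against 3001 CPM in sgp53 line 3). Twist1 was highest in sgNTC line 2 (80.9 CPM, against 63.9 CPM in sgp53 line 3). The part of either in the Dcn and Aspn levels was not tested.

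Among the class II members, Fmod (chromosome 1, 134037254 to 134048280, plus strand) encodes fibromodulin, which carries keratan sulfate and regulates collagen crosslinking. It had 0 counts in all 3 sgNTC libraries and 7, 8 and 36 counts in the sgp53 libraries of lines 1, 2 and 3. The groups did not overlap, and each sgp53 library had Fmod reads. Against 3 counts over the sgNTC group, the upper limit that a count of 0 allows, the pooled 51 counts of Fmod in sgp53 were 16.4-fold higher. This value covers the counting error of the sgNTC group only and takes the 51 counts as exact. Line 3 held 70.6% of them. Without the low-count filter edgeR gave Fmod an adjusted p of 0.0778, and DESeq2 called it (adjusted p = 0.00337). Omd (chromosome 13, 49582462 to 49592612, plus strand), osteomodulin of bone and tooth matrix, had 3, 0 and 0 counts in sgNTC and 4, 5 and 21 in sgp53. The Omd groups did not overlap on the scaled level, and the ratio of pooled counts was 9.64 (95% exact interval 3.00 to 49.4, counting error only). Without the filter its adjusted p was 0.172 by edgeR and 0.162 by DESeq2. Prelp (chromosome 1, 133910304 to 133930102, minus strand), a class II protein that links basement membranes to collagen, had 1, 0 and 0 counts in sgNTC and 1, 5 and 4 in sgp53, a ratio of 9.64 (95% exact interval 1.37 to 418, counting error only). Without the filter edgeR gave Prelp an adjusted p of 0.181. In line 1 Prelp had 1 count in each library, so its difference was in lines 2 and 3. An antisense gene shares 350 bases of Prelp exon, and its reads could not be told apart. Lum (chromosome 10, 97565501 to 97572703, plus strand), lumican, a keratan sulfate proteoglycan of cornea and skin, had 1 count in sgp53 line 3 and 0 in the other libraries. Kera (chromosome 10, 97606962 to 97613688, plus strand), keratocan of the cornea, had 0 counts in all 6 libraries, which allows up to 0.0332 CPM in sgNTC and 0.032 CPM in sgp53. No difference was detectable for Lum or Kera at this depth.

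Ogn (chromosome 13, 49608015 to 49624501, plus strand) encodes osteoglycin, or mimecan, the class III member found in bone, heart and vessel walls. It had 35, 21 and 22 counts in sgNTC and 164, 203 and 543 in sgp53 of lines 1, 2 and 3. Scaled for depth these were 1.05, 0.761 and 0.745 CPM in sgNTC and 5.60, 5.64 and 19.1 CPM in sgp53. Every sgp53 library was above every sgNTC library, sgp53 lines 1 and 2 were nearly equal, and line 3 was the highest. Ogn rose from 0.853 ± 0.173 to 10.1 ± 7.76 CPM (SD, n = 3 each), for which edgeR gave 3.55 on the log2 scale (SE 0.58, adjusted p = 0.0255). Without the sgp53 library of line 3 the fold change was 2.71 (SE 0.25), which still passed (edgeR adjusted p = 0.0167). The call was lost without sgNTC line 1, 2 or 3 (edgeR adjusted p = 0.0511, 0.0802 and 0.105) and without sgp53 line 1 (0.0536), and over all alternatives the adjusted p ranged from 4.98e-09 to 0.112.

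Podn (chromosome 4, 108014793 to 108031954, minus strand) encodes podocan, a noncanonical member that binds type I collagen and restrains the growth of smooth muscle cells. It had 151, 175 and 169 counts in sgNTC and 31, 47 and 41 in sgp53 of lines 1, 2 and 3. Scaled for depth these were 4.54, 6.34 and 5.72 CPM in sgNTC and 1.06, 1.31 and 1.44 CPM in sgp53. Every sgp53 library lay below every sgNTC library, and the spread within each group was small. Podn fell from 5.53 ± 0.916 to 1.27 ± 0.193 CPM (SD, n = 3 each), a log2 difference of -2.12 (SE 0.23, adjusted p = 0.00839 in edgeR; 0.029 with the line as a block). The within-line log2 differences of -2.03, -2.22 and -1.94 were alike in the 3 lines, line 3 included. Leaving out any 1 library kept the call (edgeR adjusted p from 0.0143 to 0.0473). Leaving out both libraries of line 1, 2 or 3, which leaves 2 libraries a group, did not (0.0725, 0.0918 and 0.112).

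**Figure D2:**
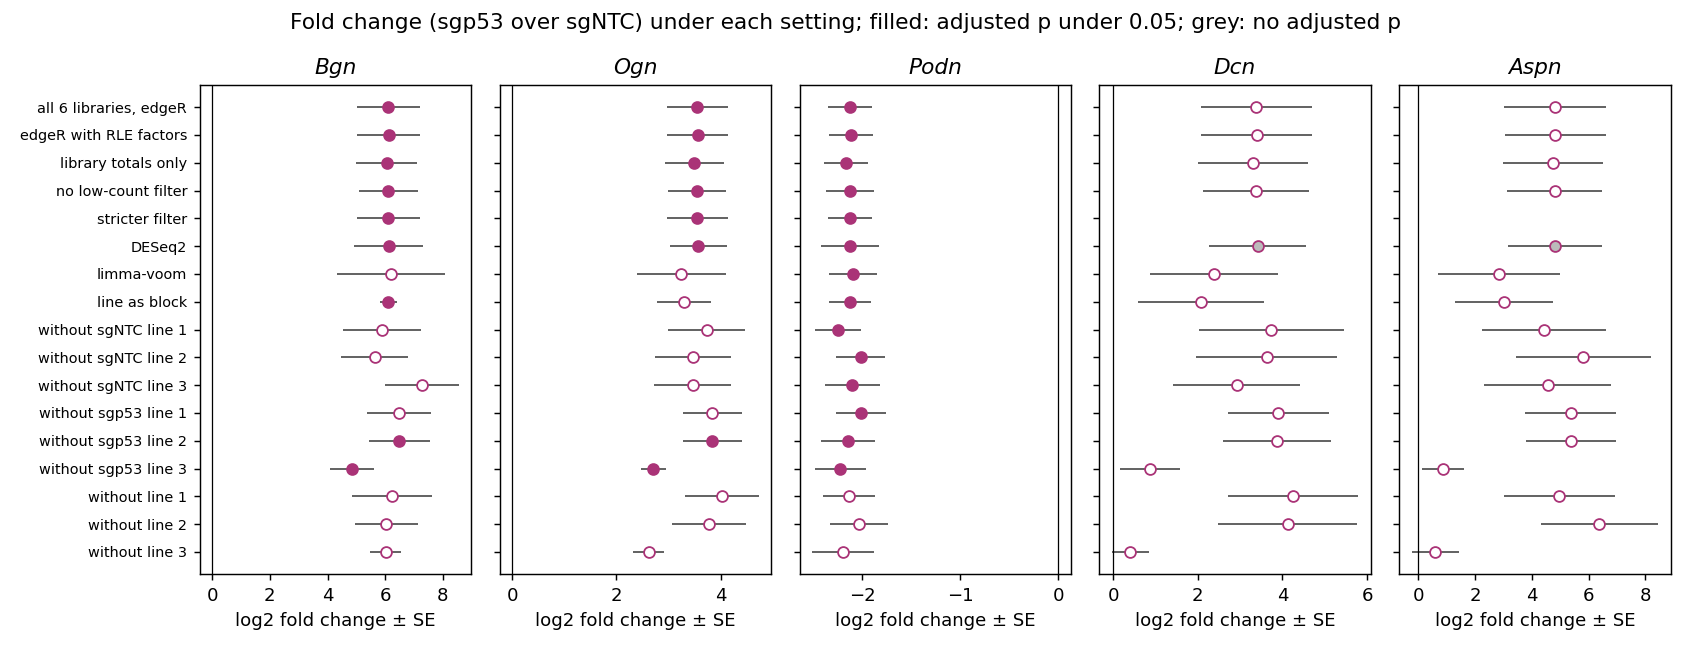
Log2 fold change of sgp53 over sgNTC with its SE for the 5 tested members in the edgeR fit of all 6 libraries and in each alternative; filled points have an adjusted p under 0.05, open points do not, and grey points have no adjusted p from DESeq2. Podn stays between -2.25 and -2.01 in all settings, while Dcn and Aspn drop to 0.41 and 0.60 without line 3.

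Since read counts scale with RNA length, levels were compared between members only as CPM per kilobase of the longest coding transcript (GENCODE M21). In sgNTC, Podn (1.75 ± 0.289) and Bgn (1.33 ± 1.34 CPM per kb, SD, n = 3) led the family and did not differ beyond their spread. Ogn (0.332 ± 0.0674), Dcn (0.168 ± 0.113) and Aspn (0.0997 ± 0.0893) followed, the last pair also within their spread, and then Omd (0.0134 ± 0.0231) and Prelp (0.00277 ± 0.0048 CPM per kb). In sgp53, Bgn led at 92.1 ± 93.2 CPM per kb, and it was above every other member in each library. Ogn (3.94 ± 3.02), Aspn (2.80 ± 4.54) and Dcn (1.79 ± 2.57) came next and could not be ordered beyond their spread. Their place above Podn, at 0.4 ± 0.0609, held for Ogn in each line but for Aspn and Dcn in line 3 alone, since Podn was the higher in sgp53 lines 1 and 2 (0.334 and 0.412 against 0.191 and 0.167 for Aspn and 0.253 and 0.364 CPM per kb for Dcn). Fmod was at 0.184 ± 0.191, Omd at 0.15 ± 0.154 and Prelp at 0.0289 ± 0.0169 CPM per kb. The order of Ogn and Podn was thus reversed, as Podn was the higher of the pair in each sgNTC library and the lower in each sgp53 library.

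As a share of the family's summed CPM, Bgn made up 25.8%, 7.17% and 50.6% of the sgNTC libraries of lines 1, 2 and 3, and 92.5%, 91.1% and 90.7% in sgp53. Podn made up 54.1%, 73.8% and 42.4% in sgNTC and 1.00%, 1.37% and 0.27% in sgp53. The sum of all 10 members was 8.39, 8.59 and 13.5 CPM in sgNTC and 106, 95.6 and 533 CPM in sgp53. Without Bgn the sums were 6.22, 7.97 and 6.67 CPM against 7.95, 8.48 and 49.8 CPM, so in lines 1 and 2 the other 9 members changed little in total, the loss of Podn reads standing against the gain of Ogn. These sums are not per length and describe the reads, not the number of molecules.

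Most members lie next to another member in the genome. On chromosome 13, Ecm2, Aspn, Omd and Ogn follow each other with gaps of 11.7, 14.9 and 15.4 kb, all inside the span of Cenpp on the opposite strand, a gene of the centromere. Ogn rose in each line, and its neighbour Omd had 3 reads in all of sgNTC and 30 in all of sgp53. The within-line log2 differences of Omd were 0.38, 1.65 and 3.62 in lines 1, 2 and 3. Aspn was high in line 3 alone. Ecm2, a further leucine-rich repeat gene of the matrix, had 23 counts in sgNTC and 15 in sgp53 and did not follow them. Cenpp was at 12.1, 12.0 and 13.2 CPM in sgNTC and 15.4, 15.2 and 16.7 CPM in sgp53 (log2 fold change 0.34, SE 0.10, adjusted p = 0.0911 in edgeR). Exons of Cenpp share 7 bases with those of Aspn and none with those of Omd or Ogn. Nol8, on the other side of Ogn, encodes a nucleolar protein and was not called (log2 fold change 0.13, SE 0.08, adjusted p = 0.302 in edgeR).

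On chromosome 10 the family genes lie in the order Dcn, Lum, Kera and Epyc, with gaps of 47.3, 34.3 and 30.4 kb, and reads were found for Dcn alone, apart from 1 count each of Lum and Epyc. On chromosome 1, Optc and Prelp lie 0.6 kb apart, and Fmod follows after 107.2 kb. Optc, opticin of the eye, had 4 counts in sgNTC and 16 in sgp53. The next gene after Fmod, 26.6 kb away, is Btg2, an antiproliferative gene and well-known p53 target. Btg2 fell from 57.9, 84.6 and 84.4 CPM to 19.2, 24.1 and 15.9 CPM in lines 1, 2 and 3 (log2 fold change -1.94, SE 0.21, adjusted p = 0.00859 in edgeR). Fmod, with reads in the sgp53 libraries alone, was too low for the test. Next to Podn, the lipid transfer gene Scp2 was not called (log2 fold change -0.22, SE 0.13, adjusted p = 0.291 in edgeR), and Slc1a7 had 3 counts in sgNTC and 4 in sgp53. Next to Bgn, Haus7, a subunit of the spindle complex augmin, rose by 0.38 (SE 0.06, adjusted p = 0.0210 in edgeR; 0.0728 with the line as a block), and Atp2b3, a calcium pump, had 9 counts in sgNTC and 5 in sgp53.

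**Figure D3:**
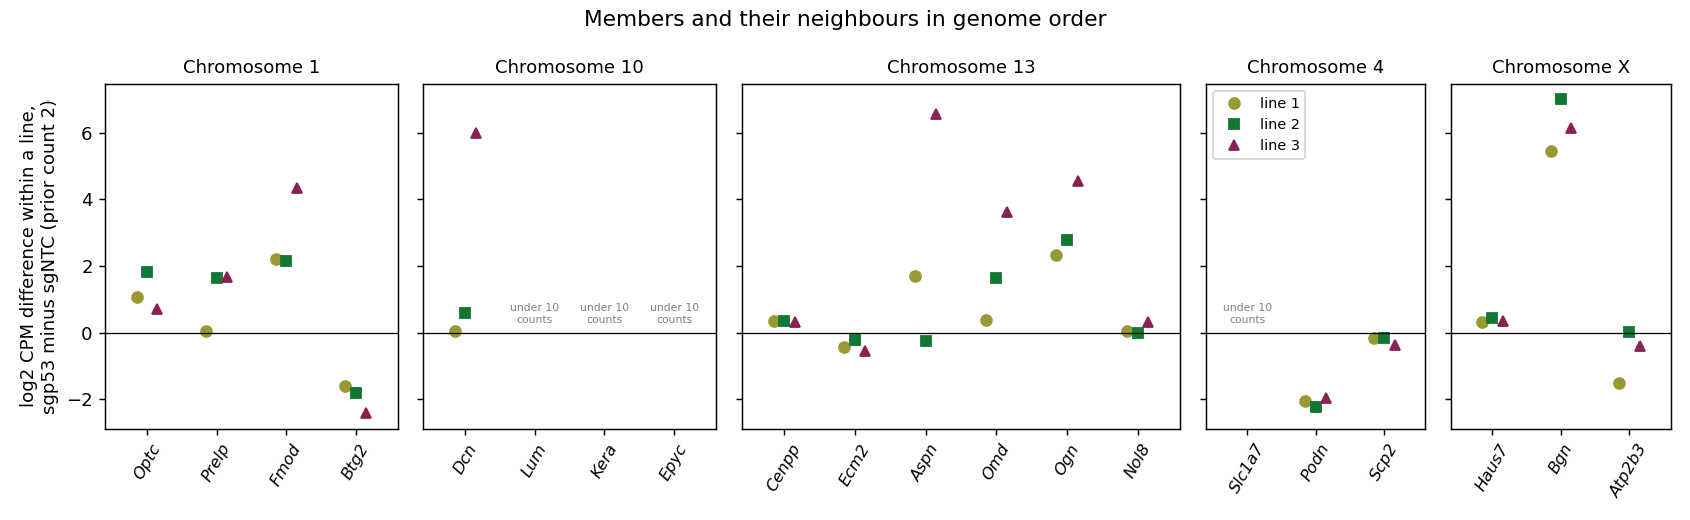
Within-line log2 CPM difference, sgp53 minus sgNTC with a prior count of 2, for members and adjacent genes in genome order on 5 chromosomes, with the line as symbol and colour; genes under 10 counts in all are marked as such. Bgn, Ogn and Podn move the same way in all 3 lines, as do Fmod and Omd at low counts. Dcn and Prelp are also above 0 in all 3 lines, but in line 1 by only 0.07 and 0.06. Prelp is at 1.65 and 1.66 in lines 2 and 3. Dcn, Aspn, Omd, Ogn and Fmod have their largest difference in line 3, and Btg2 beside Fmod is below 0 in all 3 lines.

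The log2 CPM of the tested members was correlated in pairs across the 6 libraries. Ogn followed Bgn (Pearson r = 0.95) and ran against Podn (-0.90), and Dcn followed Aspn (0.93). Bgn correlated less with Dcn (0.66) and Aspn (0.68), and Ogn more so than Bgn (0.83 and 0.80), so the members did not fall into separate patterns. These are descriptions over 6 libraries that share their group and line, with no test. Among 12053 other tested genes with a mean of at least 1 CPM, the genes most like Ogn were Myc, the growth-promoting transcription factor (r = 0.999), Brd3, a chromatin reader, and Filip1l. Picked as the highest of 12053 over 6 libraries, the r values here and below are high by selection and were not tested. Myc was at 35.4, 30.9 and 29.8 CPM in sgNTC and 64.9, 63.6 and 104 CPM in sgp53, so it shared the near-equal sgp53 lines 1 and 2 and the higher line 3. Among the genes most like Podn were Pvt1 and Pqlc3 (r = 0.998 and 0.996), of which Pqlc3 had a fold change of similar size (-2.34, SE 0.16, adjusted p = 0.00228 in edgeR). The nearest genes to Bgn were Irx3, Hspa13 and Bahcc1 (0.996 for each to 3 digits). Of these, Irx3, a homeobox factor, rose by 1.75 (SE 0.26, adjusted p = 0.0203 in edgeR) and Hspa13 differed by 0.15 (SE 0.05, adjusted p = 0.122), so a like pattern did not mean a like size. For Dcn they were 1110057K04Rik, Ripk2 and Cyp2s1 (0.990 each), and for Aspn Tob2, Stag1 and Arfgap3 (0.994, 0.992 and 0.992), none of them called.

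The other genes of the pathway were taken from lists of its partners. Of 13 tested fibrillar collagens and fibril-associated partners, 6 were higher and 0 lower, with a median log2 fold change of 2.79 against -0.01 over all tested genes, of which 2.76% were called higher and 3.69% lower. Col5a1, a minor chain that starts type I fibrils, rose by 1.20 (edgeR adjusted p = 0.00279). Col1a1 was at 12.6, 5.18 and 8.91 CPM in sgNTC and 412, 221 and 744 CPM in sgp53, and Col12a1, which coats the fibrils, rose by 2.94 (edgeR adjusted p = 0.00906). Col1a1 and Bgn both had their highest sgp53 level in line 3. The number of collagens called fell to 3 without sgNTC line 2, sgNTC line 3 or sgp53 line 1, and to 0 without both libraries of line 1 or of line 3. Of 9 tested proteases and helpers that process or cleave these proteins, 4 were higher and 0 lower (median 1.69). They included the proteoglycan-cleaving enzymes Adamts5 (0.83 ± 0.515 to 11.1 ± 3.66 CPM, edgeR adjusted p = 0.0152) and Adamts1 (14.1 ± 4.24 to 45.8 ± 9.94 CPM, edgeR adjusted p = 0.0236; 0.0671 with the line as a block), and Pcolce, an enhancer of procollagen processing (206 ± 39.6 to 412 ± 55.4 CPM, edgeR adjusted p = 0.0254). The number of proteases called was 0 without sgNTC line 3 or sgp53 line 1, and 0 without both libraries of line 1, 2 or 3. It was 1 without sgp53 line 2.

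For the enzymes that build the sugar chains, the few calls are read beside the 2.76% of all tested genes called higher and 3.69% called lower and are no result about the lists. Of 20 tested linker and chondroitin or dermatan sulfate enzymes, 1 was higher and 0 lower, with a median of 0.10. This was Dse, the epimerase that turns chondroitin into dermatan sulfate, at 36.3, 47.6 and 40.5 CPM in sgNTC and 63.1, 61.5 and 71.7 CPM in sgp53 (log2 fold change 0.66, SE 0.12, adjusted p = 0.0294 in edgeR; 0.0689 with the line as a block). The groups did not overlap for Dse. Of 6 keratan sulfate enzymes and of 10 genes of sugar nucleotide and sulfate supply, edgeR called 0 in either direction, with medians of -0.02 and -0.06. These lists had 0 and 3 genes with an unadjusted p under 0.05; DESeq2 called 0 in the first and 1 higher and 1 lower in the second, and limma-voom 0 in each. The galactosyltransferase B4galt1 averaged 102 ± 12.1 CPM in sgNTC against 103 ± 20.6 CPM in sgp53, the fucosyltransferase Fut8 at 57.6 ± 10.1 and 56.9 ± 6.12 CPM, the phosphatase Impad1 at 173 ± 6.42 and 176 ± 10.9 CPM, and Ugdh, which makes UDP-glucuronate, at 124 ± 4.81 and 158 ± 26.04 CPM.

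Of 14 other proteoglycan core proteins, 2 were higher and 0 lower (median 0.46), beside 2.76% and 3.69% of all tested genes, again too few to read as a departure. Cspg4, the NG2 proteoglycan of pericytes and progenitor cells, was at 0.812, 0.725 and 1.02 CPM in sgNTC and 4.75, 6.53 and 23.3 CPM in sgp53 (log2 fold change 3.75, SE 0.68, adjusted p = 0.0314 in edgeR), again highest in line 3. Hspg2, perlecan of basement membranes, rose from 978 ± 79.7 to 1329 ± 12.6 CPM (edgeR adjusted p = 0.0222; 0.0676 with the line as a block). Of 3 tested genes among 8 further small leucine-rich repeat proteoglycans, edgeR called 0, with 1 at an unadjusted p under 0.05, 1 called higher by DESeq2 and 0 by limma-voom. Tsku was at 19.2 ± 2.20 and 21.3 ± 2.71 CPM and Chadl at 3.34 ± 0.657 and 2.61 ± 0.319 CPM in sgNTC and sgp53. Podnl1, the closest relative of Podn and named after its values were seen, went the other way from it. It was at 0.331, 0.217 and 0.203 CPM in sgNTC and 1.06, 0.472 and 4.81 CPM in sgp53. It was not called (log2 fold change 3.04, SE 0.92, adjusted p = 0.0939 in edgeR). With 11, 6 and 6 counts in sgNTC and 31, 17 and 137 in sgp53, its passing of the filter leaned on sgp53, as for Aspn.

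Of 16 receptors and ligands that the family binds, 2 were higher and 1 lower (median 0.32), beside 2.76% and 3.69% of all tested genes, and counts this small are not read as departing from those shares. Igf1r, the receptor of insulin-like growth factor that decorin can bind, rose from 112 ± 1.25 to 162 ± 11.8 CPM (edgeR adjusted p = 0.0118). Tgfb1, a ligand held by decorin and biglycan, fell from 188 ± 46.8 to 102 ± 5.79 CPM (edgeR adjusted p = 0.045; 0.0785 with the line as a block), and Wisp1, a matricellular ligand, rose from 13.4 ± 4.72 to 31.5 ± 5.61 CPM (edgeR adjusted p = 0.0484; 0.0792 with the line as a block).

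**Figure D4:**
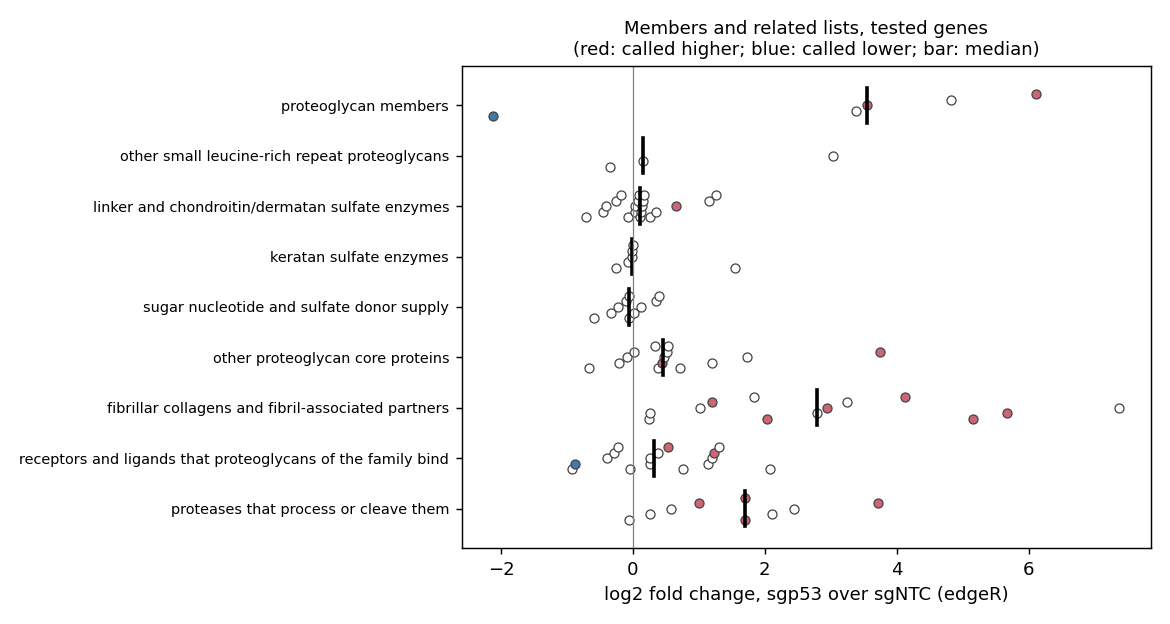
Log2 fold change of sgp53 over sgNTC for each tested member and each tested gene of the 8 related lists, with red for genes called higher, blue for genes called lower, white for genes not called and a bar at each list's median. The 13 collagen genes have a median of 2.79, while the medians of the chain-building enzymes and donor supply lie between -0.06 and 0.10.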

How the data were processed

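RNA was sequenced from 6 libraries prepared with a stranded TruSeq kit from 1 µg of total RNA of integrity number above 8.0, per the labels' protocols. The authors deposited raw read counts per gene symbol, with no normalization. CASAVA 1.8, STAR, DESeq2 and the build mm10 are listed, with no role, per the submitters' processing notes. How reads were assigned to genes, and whether by strand, is not stated in the labels or the file, so overlapping genes on opposite strands cannot be told apart. The table had 0 columns of unknown samples.

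From the counts, sgp53 and sgNTC were compared in edgeR 4.0.16 (R 4.3.3, quasi-likelihood F-test), with TMM scaling, the filterByExpr filter, 13044 genes tested and Benjamini-Hochberg adjustment over all of them; calls are at an adjusted p under 0.05. The SE was taken as the log2 fold change over the root of F. Pairs of libraries within a group differed beyond sampling noise (chi-square per degree of freedom 21.8 to 58.0). Precision is set by 3 libraries a group and, for low genes, by their counts. With 3 against 3 an exact permutation test cannot go below 0.1. P-values measure the spread between lines, whose separate origin is not given by the labels, and the descriptions of lines 2 and 3 share a number.

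Line numbers pair the libraries, since both of a number are 1 line. Their deviations about each group's mean had correlations of 0.089, 0.0018 and -0.027 in lines 1, 2 and 3. Libraries of different lines ranged from -0.100 (sgNTC line 1 with sgp53 line 2) to 0.128 (sgNTC line 3 with sgp53 line 2). Matched libraries were thus no more alike than mismatched ones by this measure. Blocking on the line (2 residual degrees of freedom against 4) was an alternative, like other scalings and filters, DESeq2 1.42.0, limma-voom (limma 3.58.1) and leaving out libraries or lines. The script was tested on simulated data. Named genes are the members, Trp53 and genes next to a member in genome order. For each member with a mean of at least 1 CPM, the 3 genes most like it are named. In each list these are up to 3 called genes of smallest adjusted p, or else 2 of highest mean. Vim, Fn1, Twist1, Krt18, Krt8, Epcam, Cdh1, Ptprc, Cd68, Cd14, Fap, Thy1, Prrx1, Rn45s, Cenpp and Podnl1 were added after their values were seen. One gene that the rule names is not reported here. The members and lists were chosen with earlier results of these data known. Coordinates are RefSeq's on GRCm38.p6.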

Additional observations from a re-analysis of the deposited data

How the results depend on the processing

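Every log2 fold change of Bgn, Ogn, Podn, Dcn, Aspn and Trp53 kept its sign in all alternatives run. Other scalings and low-count filters kept the calls of Bgn, Ogn and Podn. Limma-voom ended the calls of Bgn (log2 fold change 6.20, adjusted p = 0.0967) and Ogn (3.25, 0.0732), and the replicate block that of Ogn (3.30, edgeR adjusted p = 0.0614). Leaving out libraries or lines moved Bgn over 4.85 to 7.27, Ogn over 2.62 to 4.03, Podn over -2.25 to -2.01 and Trp53 over -1.78 to -1.31 (edgeR adjusted p from 0.0130 to 0.112). Members called higher numbered 0 by limma-voom, 1 with the replicate block and 0 to 2 without a library or line, and members called lower 0 to 1 without one. Over all genes, DESeq2 called 1190 higher and 1192 lower, the replicate block 126 and 185, and the fits without a library or line 4 to 251 and 15 to 449.

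Of the lists, DESeq2 called 10 collagens higher, 3 chondroitin enzymes lower, 1 further leucine-rich proteoglycan higher, 6 receptors and ligands higher, and 1 supply gene higher and 1 lower. Library totals alone gave 2 chondroitin enzymes lower and 1 receptor or ligand higher. The replicate block gave 0 chondroitin enzymes higher, 1 other core protein higher, and 1 receptor or ligand higher and 0 lower; limma-voom gave 1 core protein higher and 0 receptors or ligands lower. Without a library or line, the ranges were 0 to 7 collagens higher, 0 to 1 chondroitin enzymes higher and 0 to 2 lower, 0 to 1 core proteins higher, 0 to 4 proteases higher, 0 to 3 receptors and ligands higher and 0 to 1 lower, and 0 to 1 supply genes lower. The cause of these moves was not tested, beyond fewer libraries in the fits that leave some out. Depth limits Fmod, Omd, Prelp, Lum and Kera, which had at most 51 counts in a group. The replicate block changed no other call among the members.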
